A study of Mus musculus with 6 samples.

Results

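The genes described here encode the hypoxia-inducible factors (HIF) and the proteins that sense oxygen for them: Epas1, Hif1a, Hif3a, Arnt, Egln1, Egln2, Egln3, Hif1an, Vhl and the target gene Bnip3. They were chosen by symbol from tables that list 12911 genes, and 9 of the 10 symbols had a row. Hif3a matched no row and was not analysed here. The libraries hold RNA of glomerular endothelial cells, the fenestrated lining of the kidney's filtering capillaries, from mice labelled eNOS-null, that is, null for endothelial nitric oxide synthase. Control pools came from untreated eNOS-null mice and STZ pools from eNOS-null mice given streptozotocin, a beta cell toxin used to model diabetes, so the null genotype is common to both groups and no wild-type group enters the comparison. There were 3 control and 3 STZ libraries, each of RNA pooled from 4 mice, and the cells had been sorted by a fluorescent reporter, EYFP. The sources used here give no promoter for EYFP, no age or sex of the mice and no time after streptozotocin. All errors and tests rest on differences among pools, so variation among single mice does not enter them.

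HIF proteins are transcription factors made of an oxygen-regulated alpha subunit, encoded by Hif1a or Epas1, and a stable partner, encoded by Arnt. When oxygen is plentiful, the prolyl hydroxylases encoded by Egln1, Egln2 and Egln3 mark the alpha subunit, the product of Vhl recognises the mark, and the subunit is degraded, while the asparaginyl hydroxylase encoded by Hif1an blocks binding of co-activators. When oxygen falls, the alpha subunit persists and induces genes of glycolysis, vessel growth and mitochondrial turnover, among them Egln3, Egln1 and Bnip3. The control is thus largely on the protein, which counts of RNA do not measure. Endothelial cells are known for high expression of Epas1.

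Total counts were 4387339 to 8751732.5 in control and 10734376 to 12662371.5 in STZ libraries, so every STZ library was deeper. Nos3, the gene that the genotype targets, was detected at 757 to 917 CPM in control and 613 to 749 CPM in STZ pools, where CPM, counts scaled to a common normalised library size, is the unit of level throughout. This level goes against a complete absence of the transcript, and since the deleted part of the gene is not given in the sources used here, the counts do not check the genotype. Xist, a transcript of female cells, stood at 690 to 746 CPM in control pools and at 0.387 to 0.865 CPM in STZ pools. The Y-linked gene Ddx3y stood at 2.65 to 3.37 CPM and 131 to 139 CPM. The Y-linked genes Eif2s3y, Kdm5d and Uty were higher in STZ pools too (log2 fold changes of 6.43, 3.99 and 3.25). By these transcripts the control pools read as female and the STZ pools as male. Treatment, depth and sex therefore cannot be told apart in any comparison below.

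In STZ pools Epas1 and Bnip3 rose and Egln3 fell in CPM, and the other 6 genes did not pass the test. Relative to the summed level of 16 endothelial marker genes, however, the difference of Epas1 was -0.33 on the log2 scale. It was -0.09, with overlapping pools, once the marker Plat was left out. Bnip3 and Egln3 were not set against these markers. The marker sum was 18940 to 20840 CPM in control and 30040 to 32160 CPM in STZ pools. Of the 9 genes, 2 were higher and 1 was lower at an adjusted p under 0.05 (edgeR quasi-likelihood test, Benjamini-Hochberg over 12786 tested genes). Over all tested genes 9.78% were called, 5.47% higher and 4.32% lower. The libraries of the groups did not overlap in 4 of the 9 genes, against 29.1% of all tested genes. STZ over control, the median log2 fold change was 0.14 in the 9 genes and -0.01 over all tested genes. All 9 passed the filter on low counts.

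**Figure D1:**
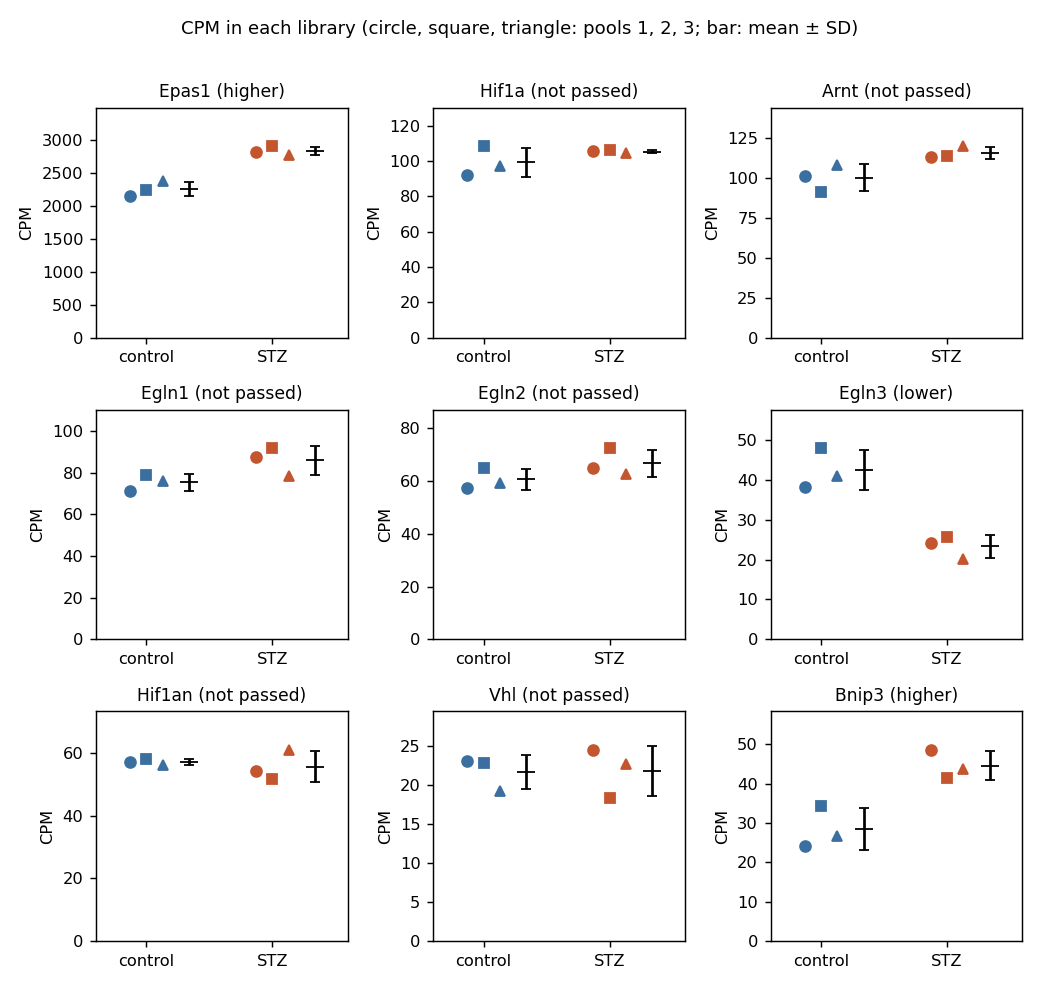
CPM (vertical axis, from 0) of each of the 9 genes in the 3 control and 3 STZ libraries. Circles, squares and triangles are pools 1, 2 and 3, and the black bar is the mean with its SD. On this scale Epas1, Arnt and Bnip3 lie higher in all 3 STZ pools than in any control pool. Egln3 lies lower in all 3, and the other 5 overlap. For Epas1 the higher level does not hold when it is set against summed endothelial markers. Arnt, Bnip3 and Egln3 were not set against these markers.

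Among the factor subunits, Epas1 was by far the most abundant. Epas1 (NM_010137; mm10 chromosome 17, 86753864 to 86833410, plus strand) had 2148, 2241 and 2368 CPM in control pools 1, 2 and 3 and 2819, 2899 and 2771 CPM in STZ pools 1, 2 and 3. The lowest STZ pool lay above the highest control pool. The group means were 2252 ± 111 CPM in control and 2829 ± 64.5 CPM in STZ (SD, n = 3 each), a log2 fold change of 0.33 ± 0.10 (SE) and an adjusted p of 0.0448 by edgeR. Its mean level over the 6 libraries was above that of 99.9% of the tested genes. The size of the difference, a 1.26-fold rise, held within 0.30 to 0.37 on the log2 scale over 15 alternative settings, but the call was made in only 7 of them. It was lost with the replicate block (adjusted p = 0.128 by edgeR) and when any library but control pool 3 was left out (adjusted p = 0.0742 to 0.164 by edgeR).

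Hif1a, the broadly expressed alpha subunit (NM_010431; chromosome 12, 73907867 to 73947530, plus strand), had 92.1, 108 and 97.4 CPM in control pools and 105, 106 and 105 CPM in STZ pools. The STZ pools all lay below control pool 2 and above the other controls, so the groups overlapped. The log2 fold change was 0.09 ± 0.09 (SE; 95% interval -0.10 to 0.28), with an adjusted p of 0.609 by edgeR. The Gencode gene model of Hif1a shares 330 exonic bases with the antisense gene Gm15283 and 148 with Gm49321 on the same strand, and no source used here gives the strand setting of the counts.

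Arnt, the common partner (NM_001037737; chromosome 3, 95434390 to 95497239, plus strand), had 101, 91.6 and 108 CPM in control and 113, 114 and 120 CPM in STZ pools. All 3 STZ pools were above all control pools. The log2 fold change of 0.21 ± 0.09 (SE) did not pass (unadjusted p = 0.0379, adjusted p = 0.177 by edgeR). Arnt was the only one of the 9 genes with more than 1 transcript in the tables, and its deposited counts included the fractional values 490.5 and 1167.5.

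Compared per kilobase of transcript, Epas1 exceeded Hif1a in every library. In control pools Epas1 stood at 421 ± 20.7 and Hif1a at 20.9 ± 1.73 CPM per kb (SD, n = 3). The ratio of Epas1 to Hif1a was 20.8, 18.4 and 21.6 in control pools 1, 2 and 3 and 23.8, 24.3 and 23.6 in STZ pools 1, 2 and 3. The ratio was higher in every STZ pool than in any control pool, by 0.24 on the log2 scale (exact permutation test, two-sided, p = 0.10, the smallest that 3 against 3 can give).

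**Figure D2:**
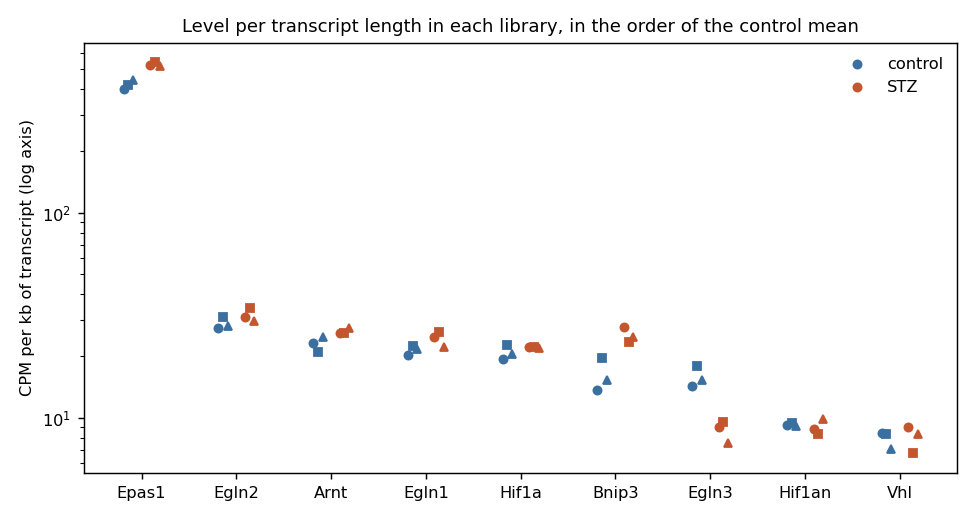
CPM per kb of transcript (vertical log axis) of the 9 genes in each library, ordered by the control mean, with control in blue and STZ in orange and circles, squares and triangles for pools 1, 2 and 3. Epas1 lies above 400 CPM per kb and all others lie between 6.72 and 34.4 CPM per kb.

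Below Epas1 the order in control pools was Egln2, Arnt, Egln1, Hif1a, Bnip3, Egln3, Hif1an and Vhl. Egln2 at 28.8 ± 1.87 CPM per kb (SD, n = 3) lay above Arnt at 22.9 ± 1.92, with no overlap of libraries. Arnt, Egln1 at 21.4 ± 1.14 and Hif1a at 20.9 ± 1.73 overlapped from each to the next, as did Hif1a with Bnip3 (16.2 ± 3.05) and Bnip3 with Egln3 (15.9 ± 1.88). Hif1an at 9.24 ± 0.146 and Vhl at 7.95 ± 0.789 CPM per kb were lowest and did not overlap each other. In STZ pools Bnip3 (25.4 ± 2.13 CPM per kb) moved up to overlap Arnt (26.5 ± 0.861) and Egln1 (24.4 ± 1.98), and Egln3 (8.71 ± 1.06) moved down to overlap Hif1an (8.997 ± 0.789) and Vhl (8.00 ± 1.17). The positions of Epas1 and Egln2 at the top were the same in both groups.

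Of the 3 prolyl hydroxylase genes, Egln3 alone was called. Egln3 (NM_028133; chromosome 12, 54178981 to 54203874, minus strand), the hydroxylase gene best known for its induction by HIF, had 38.2, 48.0 and 41.1 CPM in control and 24.2, 25.6 and 20.2 CPM in STZ pools. Every STZ pool lay well below every control pool. The mean fell from 42.5 ± 5.03 to 23.3 ± 2.82 CPM (SD, n = 3 each), a log2 fold change of -0.86 ± 0.13 (SE; 95% interval -1.15 to -0.58) and an adjusted p of 0.00114 by edgeR. The call was made in all 15 alternative settings, with log2 fold changes of -0.94 to -0.76 and adjusted p of at most 0.00727 (edgeR, DESeq2 or limma). By p-value Egln3 ranked 217 among the 12786 tested genes.

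Egln1, the main prolyl hydroxylase for HIF in most cells (NM_053207; chromosome 8, 124908587 to 124949254, minus strand), had 71.1, 79.0 and 76.2 CPM in control and 87.6, 91.9 and 78.3 CPM in STZ pools. STZ pool 3 lay below control pool 2, so the groups overlapped. The log2 fold change was 0.19 ± 0.09 (SE; adjusted p = 0.243 by edgeR). Egln2, an oxygen sensor that is not known for strong induction by HIF (NM_053208; chromosome 7, 27158658 to 27166802, minus strand), had 57.5, 65.1 and 59.4 CPM in control and 65.1, 72.6 and 62.7 CPM in STZ pools. Its groups overlapped too, with a log2 fold change of 0.14 ± 0.10 (SE; adjusted p = 0.421 by edgeR). The 95% intervals of Egln1 (-0.01 to 0.39) and Egln2 (-0.07 to 0.35) do not reach the interval of Egln3.

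Egln3 was also set against Egln1 within each library. The log2 ratio of Egln3 to Egln1, both per kilobase, was -0.50, -0.32 and -0.49 in control pools and -1.46, -1.45 and -1.56 in STZ pools. Egln3 was 1.25 to 1.41 times below Egln1 in control and 2.73 to 2.95 times below it in STZ. The difference was -1.05 on the log2 scale (exact permutation test, two-sided, p = 0.10, the smallest possible).

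Neither of the other regulators of the alpha subunit was called. Hif1an (NM_176958; chromosome 19, 44562854 to 44576274, plus strand) had 57.1, 58.1 and 56.3 CPM in control and 54.3, 51.6 and 61.1 CPM in STZ pools. The STZ pools lay on both sides of the controls, with a log2 fold change of -0.04 ± 0.10 (SE; 95% interval -0.25 to 0.17, adjusted p = 0.854 by edgeR). Vhl (NM_009507; chromosome 6, 113624021 to 113631633, plus strand) had 23.1, 22.8 and 19.2 CPM in control and 24.6, 18.3 and 22.7 CPM in STZ pools. Both the highest and the lowest library were STZ pools. The means of Vhl were 21.7 ± 2.15 and 21.9 ± 3.19 CPM (SD, n = 3), and the 95% interval of its log2 fold change ran from -0.31 to 0.31.

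Bnip3, which encodes a mitochondrial outer membrane protein that marks mitochondria for removal (NM_009760; chromosome 7, 138890836 to 138909506, minus strand), moved opposite to Egln3 although both are known HIF targets. Bnip3 had 24.1, 34.4 and 26.7 CPM in control and 48.6, 41.3 and 43.6 CPM in STZ pools. Every STZ pool lay above every control pool, and control pool 2 was the highest control. On average Bnip3 rose, from 28.4 ± 5.35 CPM in control to 44.5 ± 3.73 CPM in STZ (SD, n = 3 each), with a log2 fold change of 0.65 ± 0.14 (SE; 95% interval 0.35 to 0.95) and an adjusted p of 0.00919 by edgeR. Bnip3 did not pass without control pool 1 (0.54, adjusted p = 0.0625 by edgeR) and without STZ pool 1 (0.59, adjusted p = 0.0516 by edgeR), and it passed in the other 13 settings.

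The value of Bnip3 carries a further limit. Transcripts of 6 other Gencode genes, none of them listed in the tables, matched Bnip3 at 90% identity or more over 347 to 858 bases, and Gm45507 overlaps 504 of its exonic bases on the opposite strand. No source used here says how reads shared with these copies were counted. No such match was found for the other 8 genes.

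**Figure D3:**
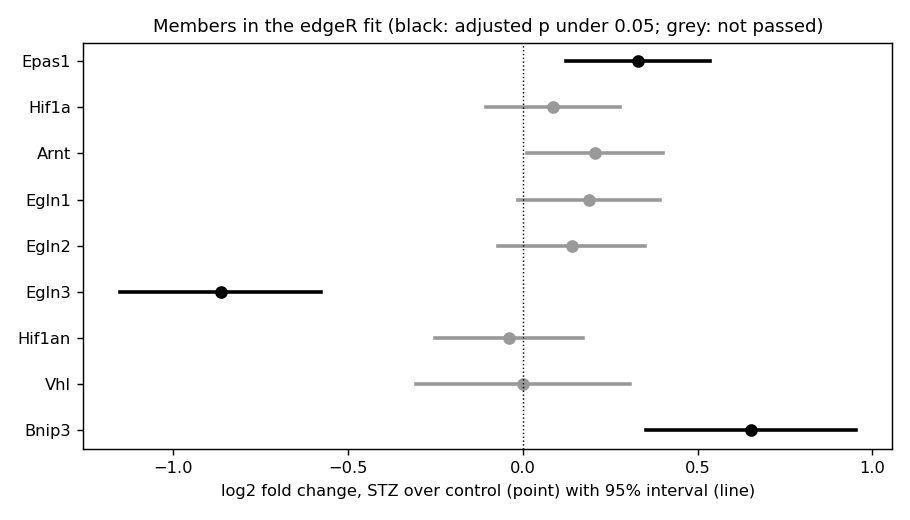
Log2 fold change of STZ over control (horizontal axis) of the 9 genes with the 95% interval of the edgeR fit. Black marks the 3 called genes, with Egln3 at -0.86, Bnip3 at 0.65 and Epas1 at 0.33, and grey the 6 that did not pass. Set against the sum of 16 endothelial markers, Epas1 was at -0.33, and at -0.09 without Plat. Bnip3 and Egln3 were not set against these markers.

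HIF proteins bind DNA at a short core, spelled ACGTG or in a second common form GCGTG, and the promoters of the called HIF targets that moved in opposite directions are shown for that reason. Each run is the 250 bases before the RefSeq start site in GRCm38.p6 (mm10), on the minus strand and written 5′ to 3′, and capitals mark either core on this strand or on the other, where ACGTG reads as CACGT while the second form reads as CACGC. The window of Bnip3 is chr7:138909507-138909756 and that of Egln3 is chr12:54203875-54204124.
Bnip3: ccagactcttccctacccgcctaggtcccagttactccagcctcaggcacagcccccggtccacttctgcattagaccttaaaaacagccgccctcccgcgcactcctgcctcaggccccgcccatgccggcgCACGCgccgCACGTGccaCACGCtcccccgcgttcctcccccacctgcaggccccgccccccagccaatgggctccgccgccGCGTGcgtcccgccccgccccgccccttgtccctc
Egln3: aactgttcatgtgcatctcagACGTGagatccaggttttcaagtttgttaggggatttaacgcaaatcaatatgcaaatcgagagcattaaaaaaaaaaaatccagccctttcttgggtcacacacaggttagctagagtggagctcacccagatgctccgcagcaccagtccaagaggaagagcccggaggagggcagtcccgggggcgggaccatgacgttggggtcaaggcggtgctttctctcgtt
Bnip3 held 4 capital stretches, in 1 of which the first core lies on both strands as CACGTG, and Egln3 held 1, whose first base lies 229 bases before the start site. The first 13 bases upstream of the RefSeq start of Bnip3 are exonic in Gencode, and no exon of another gene reaches either window. At least 1 such core, on either strand, occurred in 38.6% of 32851 promoter windows of the same length, ACGTG in 16.6% and GCGTG in 28.2%. Of the 8 listed members with an entry in the promoter table, 6 held a core in the window of their first listed start site, and Hif1an and Vhl held none. The windows of these members held between 50.8% and 86.0% G and C, and base composition was not taken into account in these shares. A match describes letters only.

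Genes that HIF proteins are known to induce were compared next, from 3 lists of glycolysis and pH, vascular and secreted, and feedback and stress genes. Of 76 tested targets, the 9 genes above left out, 13 were higher, 2 were lower, and the remaining 61 failed the test. This is 17.1% higher and 2.63% lower, against 5.47% and 4.32% over all tested genes. The median log2 fold change of the targets was 0.07. The lists and members were chosen with earlier results of these data known, so these shares are a description.

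Pfkfb3 and Gapdh were the 2 called genes among 23 of glycolysis and pH (8.7%, against 9.78% over all tested genes), and both rose. Without STZ pool 2, 4 were called higher. Pfkfb3, whose product raises the flow of sugar through glycolysis, had 71.0, 55.9 and 51.5 CPM in control and 106, 105 and 107 CPM in STZ pools (log2 fold change 0.83 ± 0.11, SE; adjusted p = 0.000455 by edgeR). Gapdh rose from 203 to 279 CPM (0.46 ± 0.09, SE). Canonical targets among the other 21, chosen after their values were seen, did not pass: the lactate dehydrogenase gene Ldha was at 0.32 (adjusted p = 0.0724 by edgeR), Pgk1 at 0.34 (0.059) and the glucose transporter gene Slc2a1 at -0.44 (0.132). The median of the list was 0.09.

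Among 24 vascular and secreted targets, 5 rose and 2 fell (29.2% called, against 9.78% over all tested genes). The DESeq2 test called 8 higher, and edgeR called 4 lower without control pool 3 and 1 lower without control pools 1 or 2 or STZ pools 1 or 2. The vasodilator gene Adm had 34.8, 34.7 and 30.5 CPM in control and 72.5, 56.3 and 73.2 CPM in STZ pools (1.01 ± 0.12, SE; adjusted p = 0.000186 by edgeR). The inducible nitric oxide synthase gene Nos2 (0.82 ± 0.12) and the VEGF receptor gene Kdr (0.61 ± 0.10) rose as well. Kdr, Flt1 and Tek of this list are also among the endothelial markers given below, whose summed level was higher in every STZ pool, and the part of that difference in the call of Kdr was not tested. The chemokine gene Cxcl12 (-1.07 ± 0.18) and the transferrin receptor gene Tfrc (-0.97 ± 0.24) fell, the call of Tfrc being lost without control pools 1 or 2 or STZ pools 1 or 2 (adjusted p = 0.0701 to 0.115 by edgeR). Vegfa, chosen after its value was seen, had a log2 fold change of -0.18 (adjusted p = 0.613 by edgeR).

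Feedback and stress targets had 6 of 29 called higher and 0 lower in edgeR, where 1 was lower with upper-quartile normalization or without control pool 1. The called share in the main fit was 20.7%, against 9.78% over all tested genes. Ddit4, an inhibitor of mTOR signalling, had 59.3, 60.6 and 60.3 CPM in control and 135, 139 and 126 CPM in STZ pools (1.15 ± 0.09, SE; adjusted p = 4.02e-06 by edgeR). The collagen prolyl hydroxylase gene P4ha2 (0.88 ± 0.10), the transcriptional repressor gene Bhlhe40 (0.82 ± 0.10) and the collagen lysyl hydroxylase gene Plod1 (0.51 ± 0.09) rose too. Ddit4 is also induced by glucocorticoids and by other stresses, and Fos and Jun, the remaining called members, by many signals. The HIF target genes Ndrg1 (0.16) and Kdm3a (-0.14), chosen after their values were seen, did not pass.

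**Figure D4:**
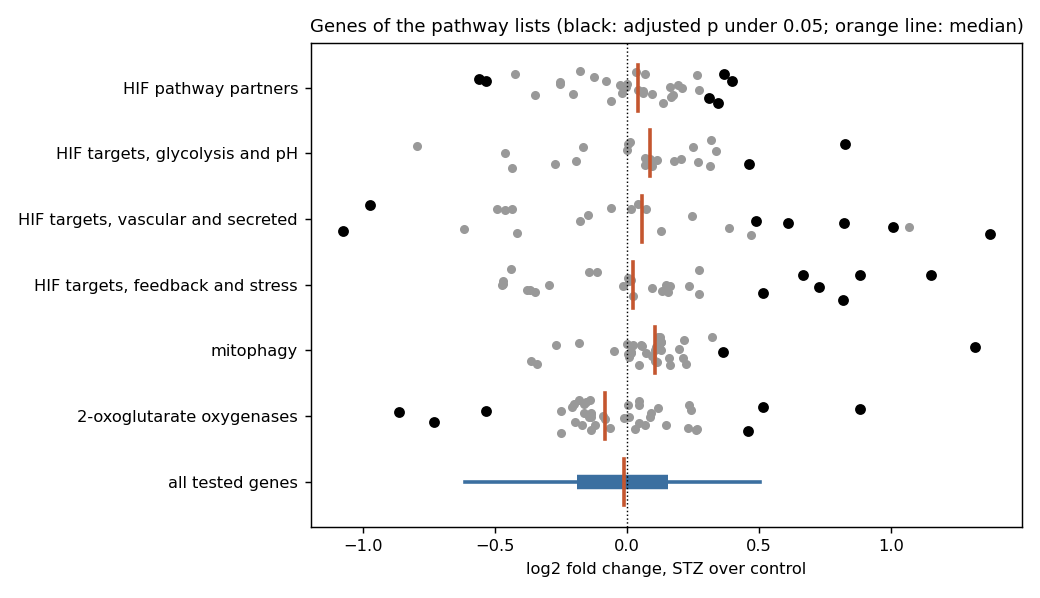
Log2 fold change of STZ over control (horizontal axis) of each tested gene in the 6 pathway lists, spread vertically for visibility. Black points were called and grey points were not, and orange lines are medians, from -0.08 to 0.11. The blue bar in the bottom row spans the quartiles of all tested genes and the thin line the 5th to 95th percentile.

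Among 33 partners that pair with, stabilise or degrade HIF proteins, 4 were called higher and 2 lower, with a median of 0.04. Called genes made up 18.2% of the partners, against 9.78% over all tested genes. Higher were Cul2 (0.37 ± 0.10, SE) and Tceb2 (0.31 ± 0.09), which encode the scaffold and an adaptor of the ubiquitin ligase of Vhl, and the chaperone genes Hsp90ab1 (0.40 ± 0.10) and Hsp90aa1 (0.34 ± 0.10). With the replicate block none of these 4 was called by edgeR (adjusted p = 0.0556 to 0.0846), no partner was called higher when control pool 1 or either of STZ pools 1 and 3 was left out, and Tceb2 and Hsp90aa1 were called in 6 of 15 alternatives. The remaining ligase components Rbx1 (0.19) and Tceb1 (0.04), chosen after their values were seen, did not pass. Arntl, a clock factor related to Arnt, fell from 67.0 ± 7.72 to 45.4 ± 1.69 CPM (SD, n = 3; -0.56 ± 0.10, SE; adjusted p = 0.00388 by edgeR), a call made in all 15 alternatives. P4htm, a membrane-bound relative of the Egln enzymes, was lower at -0.53 ± 0.16 (adjusted p = 0.0484 by edgeR), and was called in 6 of 15 alternatives.

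The Egln proteins and Hif1an belong to the oxygenases that use 2-oxoglutarate. Of 43 other tested genes of this class, 3 were called higher and 3 lower, and the median was -0.08. Calls covered 13.95% of the list, against 9.78% over all tested genes. P4ha2, Plod1 and Ogfod2 (0.46 ± 0.13, SE) were higher, the last in only 4 of 15 alternatives. Leprel2, a collagen prolyl hydroxylase gene (-0.73 ± 0.16), the DNA demethylase gene Tet1 (-0.86 ± 0.20) and P4htm were lower, and the call of Tet1 was lost without control pool 1 or STZ pool 1, which left 1 gene of the class lower (adjusted p = 0.0686 and 0.0736 by edgeR). Most of the class, 37 genes, did not pass.

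Around Bnip3, 2 of 37 tested mitophagy genes were called higher, 0 lower in edgeR and 35 did not pass, with a median of 0.11. This called share of 5.4% lay below the 9.78% over all tested genes. Bcl2l1, a survival gene whose product binds Bnip3, had 283, 245 and 273 CPM in control and 677, 667 and 649 CPM in STZ pools (1.32 ± 0.09, SE; adjusted p = 2.48e-06 by edgeR). Map1lc3b, which encodes a membrane protein of autophagosomes, rose by 0.36 ± 0.10, a call lost without control pools 1 or 3 or STZ pools 1 or 3 (adjusted p = 0.0582 to 0.142 by edgeR). Bnip3l, the close relative of Bnip3, was more abundant than Bnip3 at 161 and 167 CPM but near 0 in its log2 fold change (0.06, adjusted p = 0.755 by edgeR), and the kinase gene Pink1 was at 0.02. Bnip3l and Pink1 were chosen after their values were seen. Without control pool 3 there was 1 mitophagy gene called lower.

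The 3 genes whose profile over the 6 libraries was nearest to that of Egln3 were H2-Ob, Phlda1 and Ces2g. Profiles were log2 CPM centred on each gene's mean, compared by the root mean square difference among 10199 genes. The differences were 0.09 for H2-Ob, 0.11 for Phlda1 and 0.12 for Ces2g on the log2 scale. Their log2 fold changes were -0.90, -0.86 and -0.83, against -0.86 for Egln3. These genes were picked for their nearness over the same libraries, so the similar fold changes follow from the choice.

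Summed levels of endothelial, of mesangial and mural, and of erythroid markers moved with the groups. All 16 glomerular endothelial markers were detected, and 8 were called higher and 0 lower in edgeR. Their summed level was 18940 to 20840 CPM in control and 30040 to 32160 CPM in STZ pools. The other 8 did not pass, with log2 fold changes from -0.42 (Cldn5) to 0.30 (Pecam1). Nos3, the gene that the genotype targets, is among these (-0.31). Plat alone rose from a mean of 2630 CPM in control to 8303 CPM in STZ. The 15 listed mesangial and mural markers summed to 1668 to 1813 CPM in control and 674 to 1332 CPM in STZ pools, with 4 called lower, and the 7 listed erythroid markers to 29.8 to 77.7 and 168 to 283 CPM, with 5 called higher. The erythroid markers Hbb-bt and Hbb-b2 have the same listed locus and values in all 6 libraries, so the same counts enter this sum under both names and make up 2 of the 5 calls. Podocyte markers were present in all pools, at 5433 to 8844 CPM in control and 5794 to 7260 CPM in STZ, with none of 16 called. Of 9 listed tubule markers 1 was lower (156 to 540 against 44.2 to 263 CPM), and of 9 listed leukocyte markers 1 was higher and 1 lower (171 to 230 against 161 to 197 CPM). No listed marker of these 6 lists had a library at 0, and the defining markers Cd3e, Slc34a1 and Aqp2 had no row in the tables. In bulk RNA, fewer cells of a type and less RNA per cell cannot be told apart.

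**Figure D5:**
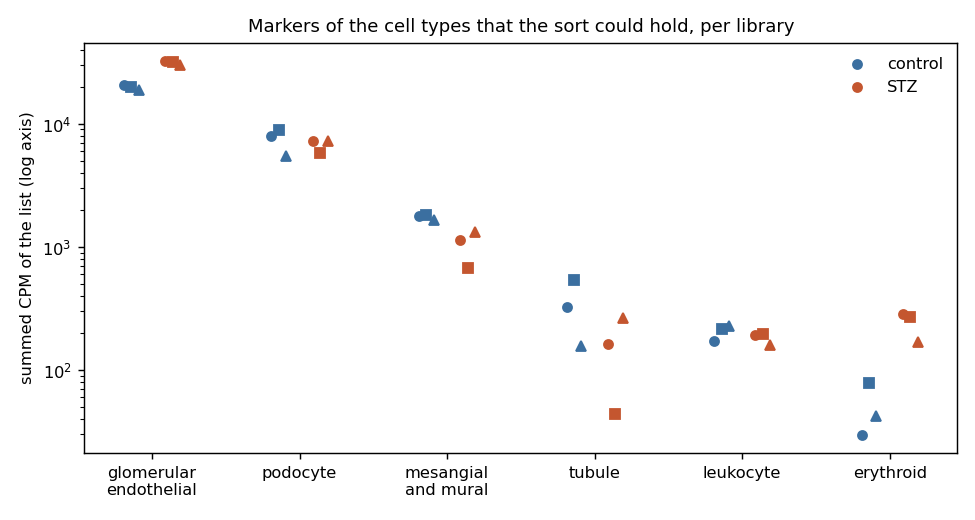
Summed CPM of each marker list (vertical log axis) in the 3 control (blue) and 3 STZ (orange) libraries, with circles, squares and triangles for pools 1, 2 and 3. Endothelial and erythroid sums lie higher in all STZ pools, the mesangial and mural sum lies lower in all 3, and the other lists overlap.

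Set against the summed level of the endothelial markers, Epas1 was not higher in STZ pools. Abundant markers such as Plat and Ehd3 weigh most in this sum. The log2 fold change of Epas1 (0.33) lay below those of the 8 called markers (0.42 to 1.66). It lay above those of the 8 that did not pass (-0.42 to 0.30). Epas1 had 103, 112 and 125 CPM per 1000 CPM of the 16 endothelial markers in control and 87.7, 90.5 and 92.3 in STZ pools, a log2 difference of -0.33 (exact permutation test, two-sided, p = 0.10, the smallest possible). Without Plat, the marker with the largest rise, it had 120, 131 and 140 in control and 119, 125 and 124 in STZ pools, a log2 difference of -0.09 (exact permutation test, two-sided, p = 0.30). Both scalings were chosen after the data were seen. Epas1 was higher in STZ pools in plain CPM. Its group mean was lower in STZ under both scalings, with overlapping pools when Plat was left out. Within the STZ group, pool 2 had the lowest mesangial and mural sum (674 CPM) and the highest Egln3 (25.6 CPM). Its podocyte (5794 CPM) and tubule (44.2 CPM) sums were the lowest of the group as well. Within the control group, pool 2 had the highest value of both, 1813 CPM for the mesangial and mural sum and 48.0 CPM for Egln3. That sum differed little among control pools (1668 to 1813 CPM). Control pool 2 also had the highest podocyte (8844 CPM), tubule (540 CPM) and erythroid (77.7 CPM) sums of its group. The part of any of these marker lists in the differences of Egln3 and Bnip3 was not tested, and neither gene was set against the endothelial markers.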

How the data were processed

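RNA-seq of 6 libraries was analysed, 3 control and 3 STZ, grouped and numbered by the labels. Each pool joined RNA of 4 mice with integrity values over 7.5, and sorting gave about 200000 cells a mouse, per the labels' protocols. The authors' deposited tables hold 1 value per gene, treated as an expected count: multiples of 0.5, with fractions in 2251 of 12911 genes and 34 blank cells, which were read as 0. The submitters' processing notes name mm10 as the build, and limma. Aligner, counter and strand setting: not given in the sources used here. Listed starts were increased by 1 to give 1-based coordinates.

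Values were rounded to whole counts and tested in R 4.3.3 by edgeR 4.0.16 (TMM scaling after filterByExpr, robust quasi-likelihood F test, two-sided, Benjamini-Hochberg over 12786 genes, threshold 0.05). The pipeline was tested on simulated counts. CPM per kb divides CPM by the listed transcript length. Overlaps and copies were read from Gencode M21 (blastn, at least 90% identity over 200 bases) and promoters from RefSeq GRCm38.p6. Alternatives were 2 other normalizations, 2 other filters, DESeq2 1.42.0, limma-voom (limma 3.58.1), a fit that was not robust, rounding down, a replicate block and leaving out each library. The members and lists were chosen with earlier results of these data known. Named genes were the members, up to 4 called genes per direction of each list by p, the most abundant markers (given here as list sums) and the 3 profiles nearest to the called member with the smallest p. One gene that this rule names is not reported here. Other genes are said to have been chosen after their values were seen. Same-numbered pools did not deviate together.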

Additional observations from a re-analysis of the deposited data

How the results depend on the processing

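Egln3 kept its call and direction under all 15 alternatives. Epas1 kept its direction but not its call with upper-quartile normalization (0.31, adjusted p = 0.0534 by edgeR), a fit that was not robust (0.33, adjusted p = 0.0535 by edgeR) and the replicate block (0.33, adjusted p = 0.128 by edgeR). With 1 library left out, log2 fold changes ran from 0.30 to 0.37 for Epas1, from 0.54 to 0.82 for Bnip3, from -0.11 to 0.0135 for Hif1an and from -0.0891 to 0.11 for Vhl, members called from 1 (without control pool 1 or STZ pool 1) to 3 and genes called from 662, when STZ pool 1 was dropped, to 1291, when control pool 3 was. Without control pool 1 there were 720 called genes. Vhl, at -0.0001, changed sign with DESeq2 size factors (7.95e-05), no filter (0.000717), at least 1 CPM in 3 libraries (0.00215), the replicate block (0.00167), rounding down (0.00189) and DESeq2 (0.000788), all near 0. The cause of these changes was not tested.

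The replicate numbers were not taken as pairs: correlations of the deviations of same-numbered pools over 12786 genes were 0.119, -0.128 and -0.163. The replicate block gave 1001 called genes against 1251, and among the members it ended the call of Epas1 alone. Of 420 alternatives of the 28 other named genes, 364 left the call as it was, 56 ended it and 0 changed the direction. The members' lowest count in a library was 87, and the effect of depth on their results was not tested.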
